A study of Mus musculus with 6 samples.

Results

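Ketone body metabolism was followed through 5 genes of the mouse heart, Bdh1, Bdh2, Oxct1, Acat1 and Slc16a1, out of 19320 genes in the expression table. All 5 were found by symbol and all 5 passed the filter on low reads. They were chosen by the measured level of Bdh1, which stood higher after transverse aortic constriction (TAC) than after sham surgery in these same samples. For that reason the values of Bdh1 are given as a description with no test, as are the TAC and sham values of the other 4 genes. The groups were TAC with Snai1 knockdown, TAC in WT (wild-type) mice, and sham surgery in WT mice, with 2 libraries in each, all from tissue labelled heart and all labelled 2 weeks. In TAC a ligature on the aortic arch raises the pressure that the left ventricle pumps against. Snai1 encodes the transcriptional repressor Snail. The series text calls the knockdown shSnai1 and its title names EndoFP, a term that no label explains. How and into which cells the knockdown was delivered, and the strain, sex and age of the mice, were not stated in the labels. RNA was extracted from hearts and from cultured cells according to the labels' protocol, and all 6 libraries are labelled as heart.

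Ketone bodies are small fuels that the liver makes from fatty acids and that the heart burns. In the mitochondria of heart muscle, 3-hydroxybutyrate is oxidised to acetoacetate by the enzyme that Bdh1 encodes. Acetoacetate then takes a coenzyme A from succinyl-CoA through the transferase encoded by Oxct1, the step that commits it to use, and the thiolase encoded by Acat1 splits the product into acetyl-CoA. Slc16a1 encodes MCT1, the transporter that carries ketone bodies, lactate and pyruvate across the cell membrane. Bdh2 encodes a cytosolic dehydrogenase of the same substrate.

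The columns of the table behaved as mixtures, and the libraries behind them were recovered as described with the processing. They held 15254681 and 18247812 reads in TAC with knockdown, 18094368 and 17221301 in TAC alone, and 14835957 and 17411297 in sham. Levels are given in CPM (reads per 1000000 reads of the library). Snai1, the targeted gene, was at 3.41 and 2.74 CPM in TAC with knockdown, 4.48 and 4.24 CPM in TAC, and 5.12 and 3.45 CPM in sham. Both knockdown libraries lay below the other 4, but the difference of knockdown from TAC did not pass the test (log2 fold change -0.51 ± 0.33 SE, limma, Benjamini-Hochberg adjusted p = 0.999). Whether 2 libraries of 1 group stem from different mice is not stated in the labels, and errors and p-values therefore cover only how far the libraries lie apart, which may be technical variation. The SE of a fold change also borrows from the spread of other genes, as described with the processing.

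Bdh1 lies on chromosome 16 from 31422280 to 31458901, plus strand (GENCODE M21, GRCm38). RefSeq places 2 start sites in it. The windows around them, from 250 bases before to 50 after each start, are shown because Bdh1 is the gene that stood apart and because Snail is a factor that binds DNA at a sequence of the E-box kind. Each is printed 5′ to 3′ on the plus strand, and capitals mark the 50 bases from the start site on (RefSeq, GRCm38.p6).
Bdh1 first start, chr16:31422047-31422346: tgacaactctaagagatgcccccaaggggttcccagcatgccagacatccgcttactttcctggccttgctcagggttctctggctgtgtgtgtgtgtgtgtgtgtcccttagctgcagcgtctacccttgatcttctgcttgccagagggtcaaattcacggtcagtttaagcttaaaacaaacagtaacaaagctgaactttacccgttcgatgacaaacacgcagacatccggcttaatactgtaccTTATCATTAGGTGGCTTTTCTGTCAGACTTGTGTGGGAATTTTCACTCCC
Bdh1 second start, chr16:31428503-31428802: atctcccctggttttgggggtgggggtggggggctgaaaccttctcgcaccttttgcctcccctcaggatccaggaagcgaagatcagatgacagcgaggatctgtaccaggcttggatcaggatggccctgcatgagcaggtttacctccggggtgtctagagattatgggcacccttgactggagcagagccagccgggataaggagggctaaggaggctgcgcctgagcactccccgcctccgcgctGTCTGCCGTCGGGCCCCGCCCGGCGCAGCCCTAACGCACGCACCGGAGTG
The windows had 48.3% and 63.7% G and C and held 7 and 17 CpG dinucleotides, against medians of 52.7% and 7 over 32851 windows of the same length. The form of the E-box that Snail is known to prefer, CAGGTG, was searched on both strands and occurred in neither window, nor in the windows of Bdh2, Oxct1 and Slc16a1. It occurs in 20.2% of all such windows. The general E-box CANNTG, which includes CAGGTG, occurred once in the second Bdh1 window, from 165 bases before the start, and once each in the windows of Oxct1 and Slc16a1, and occurs in 72.3% of all windows. No match was found in either Bdh1 window for the nuclear receptor motif AGGTCA (16.3% of windows), its direct repeat with 1 spacing base (0.0396%), the extended form TCAAGGTCA (0.423%), which contains AGGTCA, the muscle motif of MEF2 (0.11%) or TTANNTAA (6.003%). These searches concern the letters of the windows only.

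Bdh1 was the member with the widest separation between loaded and unloaded hearts. It stood at 261 and 274 CPM in TAC with knockdown, 263 and 339 CPM in TAC, and 172 and 145 CPM in sham. All 4 libraries with TAC lay above both sham libraries, and TAC with knockdown overlapped TAC. The means were 268 ± 8.85 CPM in TAC with knockdown, 301 ± 53.6 CPM in TAC and 158 ± 18.9 CPM in sham (SD, n = 2 each). The level in TAC was 1.90 times that in sham (log2 fold change 0.92 ± 0.13 SE), which is the difference for which the gene was chosen, and the level in TAC with knockdown was 1.70 times that in sham (0.76 ± 0.13).

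In TAC minus sham, Bdh1 was the single member among the genes that limma calls, a count to be read beside a background of 0.159% of 14447 genes called in either direction, 0.0831% called higher and 0.0761% called lower. Since the rule used this comparison, nothing is drawn from that count. Between TAC with knockdown and TAC the log2 difference of Bdh1 was -0.16 ± 0.13. It was 0.0230 without TAC replicate 2 and -0.34 without TAC replicate 1, so its direction rests on which TAC library is used. Both comparisons with TAC use the libraries that chose the gene, as does TAC with knockdown against sham through the sham libraries.

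**Figure D1:**
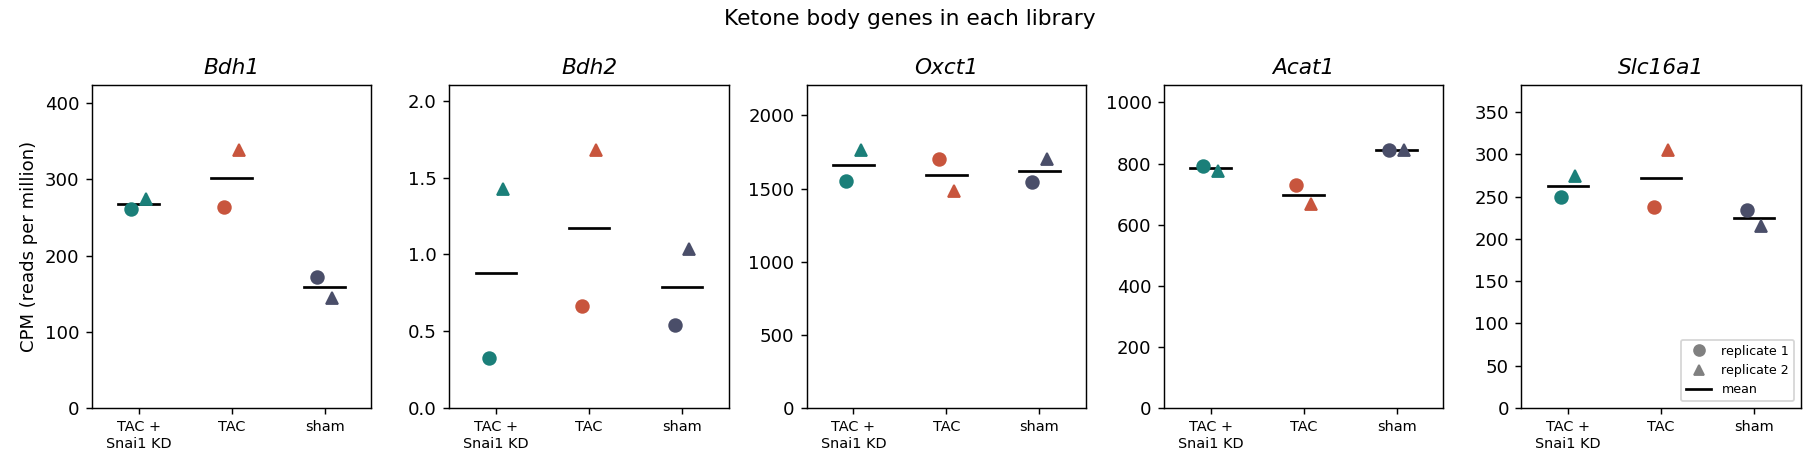
Level of each gene in CPM (vertical axes, each from 0) in the 2 libraries of TAC with Snai1 knockdown, TAC and sham. Circles are replicate 1, triangles replicate 2 and lines the mean. For Bdh1 the 4 libraries with TAC sit between 261 and 339 CPM, above both sham libraries, while for Oxct1 the 3 groups overlap.

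No source used here says whether reads were counted by strand, and without that reads of a gene and of its antisense partner cannot be told apart. The antisense gene Gm15743 lies on the minus strand of chromosome 16 from 31427876 to 31429776, across the second Bdh1 start, and 533 of its 1901 exon bases lie in Bdh1 exons. It had 34 and 27 reads in TAC with knockdown, 64 and 41 in TAC alone, and 20 and 9 in sham. These reads came to between 0.357 and 1.34 per 100 Bdh1 reads. The libraries with TAC were again the higher ones, with no overlap with sham, and its part in the Bdh1 count was not tested.

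Oxct1, the committing step of ketone body use, was the most abundant member and its groups overlapped throughout. It lies on chromosome 15 from 4026383 to 4155344, plus strand, and is overlapped on the minus strand by BC037032 and Gm15632, which were not used here. Its levels were 1551 and 1767 CPM in TAC with knockdown, 1701 and 1481 CPM in TAC, and 1542 and 1704 CPM in sham. The log2 fold change was -0.03 ± 0.12 in TAC minus sham and turned positive without TAC replicate 2 or sham replicate 2 (0.0699 and 0.0420). TAC with knockdown differed from TAC by 0.06 ± 0.12, with a 95% interval from -0.20 to 0.32, and did not pass the test (limma, adjusted p = 0.999). Against sham it differed by 0.03 ± 0.12, with an interval from -0.23 to 0.29 (limma, adjusted p = 0.968), and this sign turned with median ratio scaling (-0.0234) and with quantile normalization (-0.0221).

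Acat1, the thiolase of the last step, lies on chromosome 9 from 53580522 to 53610382, minus strand. It was at 793 and 775 CPM in TAC with knockdown, 728 and 667 CPM in TAC, and 846 and 846 CPM in sham. The 3 groups did not overlap, with TAC lowest, sham highest and TAC with knockdown between them. The log2 fold change of TAC minus sham was -0.28 ± 0.10, and it lay between -0.34 and -0.22 when 1 library was left out. TAC with knockdown minus TAC was 0.17 ± 0.10, with a 95% interval from -0.05 to 0.39, and did not pass (limma, adjusted p = 0.999). TAC with knockdown minus sham was -0.11 ± 0.10, with an interval from -0.33 to 0.11 (limma, adjusted p = 0.81). In the columns as deposited, whose spread is that of mixtures and not of samples, the same test gave adjusted p of 1.57e-06 and 1.71e-04 for these 2 differences.

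Slc16a1, on chromosome 3 from 104638668 to 104658462, plus strand, was at 250 and 275 CPM in TAC with knockdown, 237 and 306 CPM in TAC, and 234 and 216 CPM in sham. Sham replicate 1 and TAC replicate 1 were close, and the 4 libraries with TAC all lay above both sham libraries. The log2 fold change of TAC minus sham was 0.26 ± 0.12, and it was 0.08 without TAC replicate 2 and 0.45 without TAC replicate 1. TAC with knockdown minus TAC was -0.04 ± 0.12 (95% interval from -0.31 to 0.23; limma, adjusted p = 0.999), with a positive sign without TAC replicate 2 or knockdown replicate 1. TAC with knockdown minus sham was 0.22 ± 0.12 (95% interval from -0.04 to 0.49; limma, adjusted p = 0.655).

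Bdh2, on chromosome 3 from 135281221 to 135304426, plus strand, was close to the limit of detection. It had 5 and 26 reads in TAC with knockdown, 12 and 29 in TAC alone, and 8 and 18 in sham, or between 0.328 and 1.68 CPM. The exact Poisson 95% interval of the lowest count runs from 1.62 to 11.7 reads and that of the highest from 19.4 to 41.6 reads, and these intervals cover counting error only. Those of the 2 libraries of TAC with knockdown, 1.62 to 11.7 and 17.0 to 38.1 reads, did not overlap. The groups overlapped, and replicate 2 was higher than replicate 1 in each of them. The log2 fold changes were 0.48 ± 0.82 in TAC minus sham, -0.59 ± 0.82 in TAC with knockdown minus TAC (limma, adjusted p = 0.999) and -0.11 ± 0.82 in TAC with knockdown minus sham (limma, adjusted p = 0.985). With intervals from -2.34 to 1.16 and from -1.86 to 1.64 for the last 2, no difference was detected, and the sign changed with the library left out.

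Among the 5 members the TAC and sham libraries did not overlap for 3, with 2 higher and 1 lower, beside 23.7% and 16.4% of all 14447 genes. In TAC with knockdown minus TAC 1 member was higher and 0 lower without overlap, beside 16.0% and 12.4% of all genes. In TAC with knockdown minus sham 2 were higher and 1 lower, beside 25.4% and 13.8%. The median log2 fold change of the 5 was 0.26 in TAC minus sham, -0.04 in TAC with knockdown minus TAC and 0.03 in TAC with knockdown minus sham, beside 0.04, 0.02 and 0.05 over all genes tested.

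Per length of exon, the mean levels of the enzymes of ketone body use had the same order in the 3 groups, with Oxct1 above Acat1 and Acat1 above Bdh1. Oxct1 averaged 448 ± 41.2 CPM per kb in TAC with knockdown, 430 ± 42.0 in TAC and 438 ± 30.9 in sham (SD, n = 2 each). Acat1 followed with 209 ± 3.40, 186 ± 11.5 and 225 ± 0.0362 CPM per kb in the same groups. Bdh1 had 68.9 ± 2.28, 77.5 ± 13.8 and 40.7 ± 4.87 CPM per kb, so that Oxct1 exceeded it by factors of 6.23 and 6.77 in the TAC with knockdown libraries, 6.78 and 4.59 in the TAC libraries, and 9.44 and 12.4 in the sham libraries. By this measure Bdh1 and Slc16a1 changed places. Their ratio per kb was 1.19 and 1.14 in TAC with knockdown, 1.264 and 1.263 in TAC alone, and 0.835 and 0.765 in sham. The lengths are those of all annotated exons, 3888 bases for Bdh1 and 4426 for Slc16a1. In reads, without length, their ratio in TAC with knockdown was 1.05 and 0.997. Bdh2 stayed below 0.40 CPM per kb in every library.

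Ratios between members do not depend on the library total. There were 0.169 and 0.155 Bdh1 reads per Oxct1 read in TAC with knockdown, 0.155 and 0.229 in TAC alone, and 0.111 and 0.0850 in sham. Per Acat1 read there were 0.330 and 0.354 in TAC with knockdown, 0.362 and 0.509 in TAC alone, and 0.203 and 0.171 in sham, the widest separation among these ratios. Both ratios were higher in all 4 libraries with TAC than in either sham library, and the mean ratios to Oxct1 and Acat1 in TAC were 1.96 and 2.33 times those in sham. These are the libraries that chose Bdh1, so the ratios are a description. They show by how much the balance of the transcripts differed, and not which of 2 transcripts moved.

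**Figure D2:**
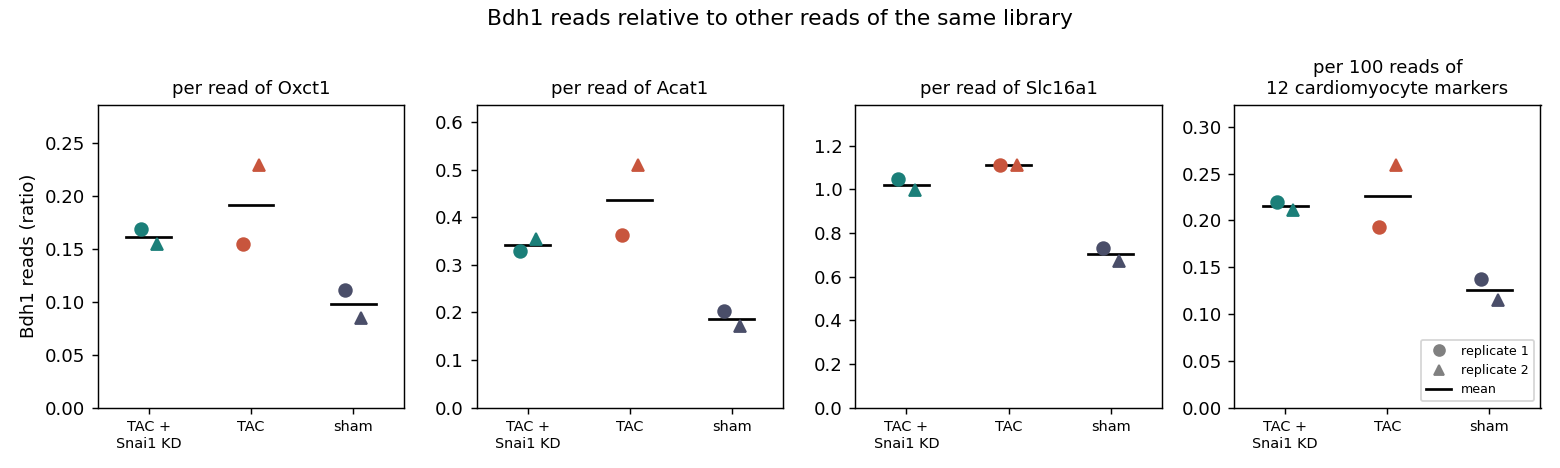
Bdh1 reads per read of Oxct1, Acat1 and Slc16a1 and per 100 reads of 12 cardiomyocyte markers (vertical axes, each from 0) in the 2 libraries of each group. Circles are replicate 1, triangles replicate 2 and lines the mean. In each panel both sham libraries lie lowest, and per Slc16a1 read the 2 TAC libraries coincide at 1.11.

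The 2 TAC libraries differed among themselves. TAC replicate 2 exceeded TAC replicate 1 by 0.36 for Bdh1 and 0.37 for Slc16a1 on the log2 scale and was lower by 0.20 for Oxct1 and 0.13 for Acat1. Bdh1 and Slc16a1 kept the same ratio of 1.11 reads in both TAC libraries while their levels differed. Within sham, replicate 1 was the higher library for Bdh1 by 0.24 and for Slc16a1 by 0.12, and the lower for Oxct1 by 0.14. The 2 Bdh1 libraries of TAC with knockdown were 0.07 apart, closer than those of TAC and of sham.

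In bulk tissue, fewer cells of a type and less RNA per cell cannot be told apart. The 12 cardiomyocyte markers, all detected, summed to 119254 and 130056 CPM in TAC with knockdown, 136491 and 131039 CPM in TAC, and 125029 and 125981 CPM in sham. Per 100 reads of these markers there were 0.219 and 0.211 Bdh1 reads in TAC with knockdown, 0.193 and 0.259 in TAC alone, and 0.137 and 0.115 in sham, again without overlap between libraries with TAC and sham. The summed level of 14 macrophage markers was also higher in all 4 libraries with TAC. They summed to 590 and 411 CPM in TAC with knockdown, 393 and 467 CPM in TAC, and 276 and 275 CPM in sham, and 3 of the 14, Lgals3, Ms4a7 and Mpeg1, were called higher in TAC than in sham, beside 0.0831% of all genes. In TAC with knockdown minus sham 4 were, with Cd68 added, beside 0.138% of all genes. Without overlap, 10 of the 14 were higher in TAC than in sham, beside 23.7% of all genes. The 1 marker lower without overlap was Itgam (log2 fold change -0.93 ± 0.46), beside 16.4% of all genes. In TAC with knockdown minus sham 11 were higher and 2 lower without overlap, beside 25.4% and 13.8%, with Itgam lowest (-0.71). All 8 erythroid and platelet markers tested were below 0 in TAC minus sham, where 56.2% of all genes lay above 0. Of the 8, 7 were lower without overlap, beside 16.4% of all genes. Ppbp (log2 fold change -3.50 ± 0.47) and Itga2b (-2.64 ± 0.47), both of platelets, were called lower, beside 0.0761% of all genes. In TAC with knockdown minus sham 4 of the 8 were lower without overlap, beside 13.8% of all genes. Ppbp was called lower there (-3.04 ± 0.47), beside 0.104% of all genes. The sums of the 8 were 767 and 1136 CPM in TAC with knockdown, 875 and 801 CPM in TAC, and 1789 and 951 CPM in sham. The part of either list in the Bdh1 difference was not tested. Fibroblast markers summed to 3487 and 3121 CPM in TAC with knockdown, 2899 and 3538 CPM in TAC, and 3232 and 3084 CPM in sham, and endothelial markers to 2526 and 2200, 2007 and 2515, and 2094 and 2035 CPM in the same groups. TAC overlapped sham for both lists, and TAC replicate 2 was the higher TAC library in both, as it was for the macrophage markers. In TAC with knockdown both endothelial sums lay above those of sham. Without overlap, 1 of 10 fibroblast markers was higher and 1 lower in TAC minus sham, and 4 and 0 in TAC with knockdown minus sham. For 10 endothelial markers the counts were 4 and 1, then 5 and 1. For 9 markers of pericytes and smooth muscle they were 3 and 1, then 6 and 2. The shares of all genes were 23.7% and 16.4%, then 25.4% and 13.8%. In TAC minus sham 9 of the 10 fibroblast, 8 of the 10 endothelial and 6 of the 9 pericyte and smooth muscle markers lay above 0, beside 56.2% of all genes. None of these markers was called in any comparison. The part of these 3 lists in the Bdh1 difference was not tested. The 10 hepatocyte markers summed to 7.34 and 5.43 CPM in TAC with knockdown, 4.14 and 4.53 CPM in TAC, and 18.7 and 5.11 CPM in sham, with the highest sum in sham replicate 1, and their part in the Bdh1 difference was not tested.

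The genes other than the members that encode enzymes around the Oxct1 step, Suclg1, Suclg2, Sucla2, Cs, Acat2 and Aacs, did not pass the test in any comparison. Suclg1, Suclg2 and Sucla2, the subunits of the ligase that handles succinyl-CoA, had log2 fold changes of 0.04, -0.15 and -0.03 in TAC minus sham, each with an SE of 0.10 to 0.11. Cs, the citrate synthase gene that takes up acetyl-CoA, was at 1836 and 2068 CPM in TAC with knockdown, 2009 and 1828 CPM in TAC, and 1743 and 1902 CPM in sham. Acat2, the cytosolic thiolase, had between 62 and 95 reads. Aacs, the cytosolic synthetase that activates acetoacetate for lipid synthesis, had between 35 and 69 reads and overlapped between groups.

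Among transporters, Slc16a7, which encodes the related carrier MCT2, was at 16.3 and 12.4 CPM in TAC with knockdown, 16.5 and 17.3 CPM in TAC, and 11.9 and 14.01 CPM in sham (TAC minus sham 0.39 ± 0.19, limma, adjusted p = 0.56). Slc16a3, the lactate exporter MCT4, had 33 to 72 reads, and Slc16a6, of the same carrier family, had 250 and 206 reads in TAC with knockdown, 219 and 155 in TAC alone, and 153 and 187 in sham. Bsg (basigin), the chaperone that brings MCT1 to the membrane, was far more abundant and stood between 1474 and 1620 CPM in all 6 libraries. Emb, the chaperone embigin, ranged from 8.29 to 11.7 CPM. The receptor gene Hcar2, which responds to 3-hydroxybutyrate, had 2 reads in each TAC library and 0 in the other 4, and its neighbour in sequence Hcar1, a lactate receptor, had 2 to 16 reads.

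Beyond the members, 7 lists for ketone body synthesis, use, transport, regulation, branched-chain amino acid breakdown, sterol synthesis in the cytosol and lactate handling held 77 genes, of which 71 were in the table and 67 were tested. None passed in any of the 3 comparisons by limma, in which 0.159% of all tested genes were called in TAC minus sham, 0% in TAC with knockdown minus TAC and 0.242% in TAC with knockdown minus sham. In TAC minus sham 8 of the 67 had an unadjusted p below 0.05 by limma, beside 1383 of all 14447 genes tested. In TAC with knockdown minus TAC 1 did, beside 300 of all genes, and in TAC with knockdown minus sham 6 did, beside 1271. The groups did not overlap for 26 of the 67 genes in TAC minus sham (38.8%, beside 40.1% of all genes), for 18 in TAC with knockdown minus TAC (26.9%, beside 28.5%) and for 21 in TAC with knockdown minus sham (31.3%, beside 39.3%). The median log2 fold change of the 67 was 0.00, 0.02 and 0.05 in the same order, beside 0.04, 0.02 and 0.05 over all genes. The pooled share without overlap in TAC with knockdown minus sham lay below that of all genes, and the other pooled shares lay near theirs. Single lists are small and differed. In TAC minus sham 2 of 3 tested genes of synthesis, 4 of 6 of transport and 0 of 5 of use did not overlap. Nothing is drawn from these shares about the lists.

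**Figure D3:**
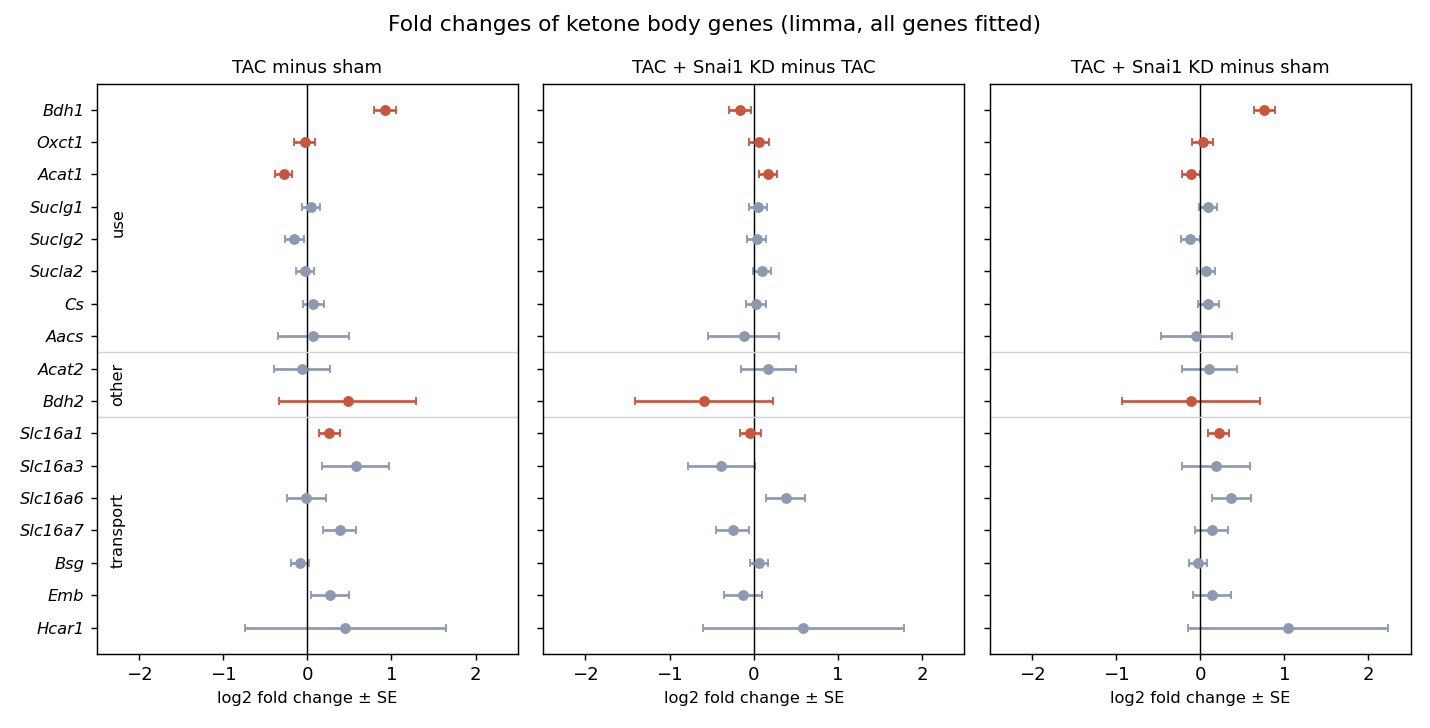
Log2 fold changes with their SE (horizontal axes) for genes of ketone body use, the other enzymes Acat2 and Bdh2, and genes of transport in TAC minus sham, TAC with Snai1 knockdown minus TAC, and TAC with Snai1 knockdown minus sham. Red points are the 5 members and grey points other genes of the lists. Bdh1 lies farthest to the right of 0 relative to its SE in TAC minus sham (0.92 ± 0.13), and Hcar1 and Bdh2 have the widest bars.

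Within these lists the genes with the highest and lowest values in TAC minus sham were spread over functions. Ppara, the fatty acid receptor that drives ketogenic genes in liver, was at 28.7 and 41.7 CPM in TAC with knockdown, 47.6 and 39.1 CPM in TAC, and 31.1 and 34.1 CPM in sham (0.40 ± 0.17, limma, adjusted p = 0.472). Cpt1a, a carnitine transferase at the gate of fatty acid oxidation, had the smallest p of the 67 genes in that comparison and did not pass (0.33 ± 0.12, limma, adjusted p = 0.369). Cpt2, its partner in the inner membrane, was the lowest of the regulator list (-0.28 ± 0.12). Sirt3, a mitochondrial deacetylase, was at 30.5 and 31.8 CPM in TAC with knockdown, 24.9 and 26.7 CPM in TAC, and 21.2 and 24.1 CPM in sham, with the smallest p in TAC with knockdown minus sham (0.46 ± 0.15, limma, adjusted p = 0.342). Other extremes of the lists were Fdft1 (-0.30 ± 0.13) of cholesterol synthesis, Ppm1k (0.21 ± 0.14) and Auh (-0.26 ± 0.12) of branched-chain amino acid breakdown, and Ldha (0.30 ± 0.11) and Pdk2 (-0.31 ± 0.12) of lactate and pyruvate handling. None of these passed. Pdk4, a kinase that restrains pyruvate oxidation and is known to rise with fasting, was picked out after its values were seen. It was at 75.1 and 88.5 CPM in TAC with knockdown, 115 and 164 CPM in TAC, and 70.7 and 327 CPM in sham, so that the 2 sham libraries enclosed the other 4. Bdh1 was 172 and 145 CPM in the same 2 sham libraries, which are among those that chose it. Any part of fasting in the values of either gene was not tested.

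The genes whose profile over the 6 libraries was most like that of Bdh1 were sought among 10244 other genes averaging 100 reads or more, by the root mean square difference of log2 CPM after each gene was centred on its own mean. The 5 closest were Apod (0.08), Loxl2 (0.09), Ccdc8 (0.10), Wdr6 (0.10) and Fbn1 (0.10), with Pearson r of 0.985, 0.989, 0.974, 0.978 and 0.977 over the 6 libraries as a description. Apod encodes the secreted lipid carrier apolipoprotein D, Loxl2 an enzyme that crosslinks collagen, and Fbn1 the microfibril protein fibrillin-1. Fbn1 was at 124 and 126 CPM in TAC with knockdown, 121 and 157 CPM in TAC, and 67.3 and 70.3 CPM in sham. Of the other members, Slc16a1 lay at 0.29 with an r of 0.872, Oxct1 at 0.45 with -0.242 and Acat1 at 0.53 with -0.88, while Bdh2 had too few reads for this measure. Profiles that share the same 6 libraries share their totals and their handling as well.

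**Figure D4:**
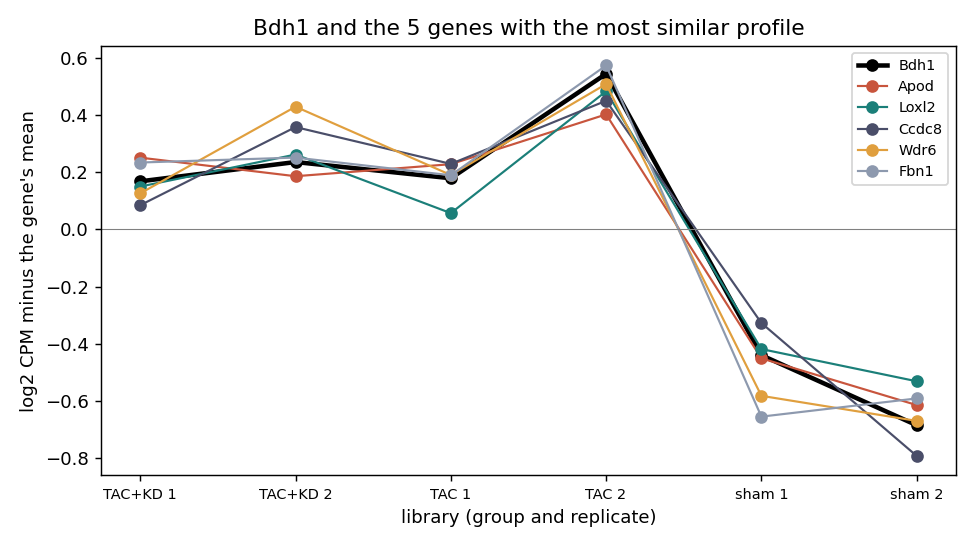
Log2 CPM of Bdh1 and of the 5 genes with the most similar profile, each minus its own mean over the 6 libraries (vertical axis), by library (horizontal axis). Lines join the libraries of a gene and imply no order. All 6 genes have both sham libraries below their mean and TAC replicate 2 highest.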

How the data were processed

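Per the file's values, the authors deposited log2 values for 19320 genes, each the log2 of a CPM after 0.5 was added to a gene's reads and 1 to the total. The submitters' processing notes name limma and mm10. Which aligner, counter, annotation and strandedness were used is not given in the sources used here. Undoing the log2 gave steps of 0.2. The 2 columns of each group were solved as mixtures with 60% and 40% shares of 2 libraries, which gave whole counts within 0.05 for 99.9% of 115920 values and no negative value. No source records such a mixing. Resolved counts were rounded, and a library has the replicate number of the column that holds more of it.

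All 6 libraries were fitted with limma 3.58.1 in R 4.3.3 (1 mean per group, intensity trend) on log2 CPM with 0.5 added, scaled by library totals. Folds are on that scale, which understates changes of low genes. Each SE is moderated towards the spread of genes of similar level, with 11.3 prior against 3 residual degrees of freedom. It is therefore not the spread of the gene's own libraries alone. On the log2 scale the gene's own pooled SD within groups was 0.181 for Bdh1 and 0.0535 for Acat1. Genes needed the CPM of 10 reads of the median library in 2 libraries and 15 reads in all, which left 14447. P-values were adjusted by Benjamini-Hochberg over all of them, with calls below 0.05. At these depths 3 reads make 0.164 to 0.202 CPM. The steps were also run on simulated libraries mixed in the same 60% and 40% shares. That run used known totals and cannot show whether the deposited columns are such mixtures. Members and lists were chosen with earlier results of these data known. Named genes were all members, the synthesis, use and transport genes, each list's extremes in TAC minus sham averaging 100 reads or more, and the 5 genes most like Bdh1. Gene positions and exon lengths came from GENCODE M21 and start site windows from RefSeq, which had them for 4 of the 5 members. Some genes that this rule names are not reported here.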

Additional observations from a re-analysis of the deposited data

How the results depend on the processing

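Bdh1 kept its direction in TAC minus sham and in TAC with knockdown minus sham under every alternative run. Without 1 library its log2 fold change lay between 0.74 and 1.11 in TAC minus sham, between 0.64 and 0.89 in TAC with knockdown minus sham, and between -0.34 and 0.0230 in TAC with knockdown minus TAC. Among the other members, the sign changed for Oxct1 in TAC with knockdown minus sham (-0.0234 with median ratio scaling, -0.0221 with quantile normalization) and for Bdh2 there in the deposited columns (0.18). Without 1 library Oxct1 ranged from -0.13 to 0.0699 in TAC minus sham, from -0.0390 to 0.161 in TAC with knockdown minus TAC and from -0.0629 to 0.125 in TAC with knockdown minus sham, Bdh2 from -0.18 to 1.13, from -1.59 to 0.42 and from -1.11 to 0.90 in the same order, and Slc16a1 from -0.22 to 0.14 in TAC with knockdown minus TAC. Bdh2, Oxct1, Acat1 and Slc16a1 passed the test in neither comparison of the knockdown under any alternative on the resolved libraries.

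Counts of called genes moved more. TAC minus sham had 12 higher and 11 lower genes, against 5 and 4 with no filter, 21 and 21 with 2 added to the reads, 7 higher with limma-voom, 17 lower with median ratio scaling, and 1 to 27 higher and 3 to 24 lower without 1 library. TAC with knockdown minus sham had 20 higher and 15 lower, against 7 and 7 with no filter, 13 higher with quantile normalization, 6 higher with limma-voom, 9 higher with only the 2 groups compared, and 1 to 25 higher and 2 to 25 lower without 1 library. TAC with knockdown minus TAC had 0 and 0, with 300 genes at an unadjusted p below 0.05 by limma. In the deposited columns as they stand, the 3 comparisons had 7638 higher and 6174 lower (TAC minus sham), 6593 and 5544 (TAC with knockdown minus TAC) and 7993 and 5676 (TAC with knockdown minus sham), the spread there being that of mixtures, and the differences of Oxct1 and Acat1 from TAC (adjusted p = 0.0415 and 1.57e-06) and of Acat1 and Slc16a1 from sham (1.71e-04 and 9.35e-09) passed in the knockdown comparisons. With the replicate number as a block, TAC minus sham had 20 higher and 20 lower genes and TAC with knockdown minus TAC 1 higher, and no call of Bdh2, Oxct1, Acat1 or Slc16a1 in the comparisons of the knockdown changed. The replicate numbers share only a number: deviations of same-numbered libraries correlated at -0.22 for TAC with sham, -0.13 for TAC with knockdown with TAC and 0.13 for TAC with knockdown with sham over 5246 genes. Beyond the alternatives' own construction, the cause of these changes was not tested. Bdh2, Hcar1 and Hcar2 had few reads, and the part of depth in their spread was not tested.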
